A study of Mus musculus with 32 samples.

Results

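Esrrb encodes an orphan nuclear receptor, a transcription factor that binds the estrogen-related receptor element without a known natural hormone. The contacts examined here are those of its internal promoter, which was 1 of 14 promoter fragments pulled out by Capture-C, a method that cuts crosslinked chromatin, ligates ends that lie close together in the nucleus and sequences the fragments joined to a chosen bait. Members were all fragments joined to this bait (named Esrrb.2 in the tables) at 10 kb up to 1 Mb from it on the same chromosome. They numbered 126 of 2819 fragment pairs of this bait at any distance and of 30435 pairs of all baits. Members were taken by position among the listed pairs, with no further limit on their counts. Only fragments listed with at least 1 read could be members, which were 3.326% of the 3788 restriction fragments of at least 101 bp in the range.

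The libraries came from small intestinal epithelium organoids of aged C57BL/6JRj mice, O76 (passages P2 and P3) and O77 (passages P4 and P5). Organoids had been given IFNg, the cytokine interferon gamma, at 500 pg/ml for 3 h from 3 days after splitting, or growth medium alone for the same time. The 32 samples are 8 libraries, each sequenced on 4 lanes, from 2 mice, with 4 libraries per treatment and 25000 cells as input. Organoids are cultured epithelium and hold none of the immune or stromal cells that make interferon in the gut, and the tables hold no expression values by which the epithelial label could be checked.

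The 2 deposited tables could not be assigned to a treatment. Each holds 4 count columns numbered without mouse, passage or treatment. The table whose name says control is attached by the sample descriptions to the IFNg samples, and the table whose name says IFNg is attached to the control samples. They are therefore called the IFNγ-named table and the control-named table. Every difference below is IFNγ-named minus control-named, or the log2 ratio in that direction, and its sign turns if the descriptions are right. Because libraries of 2 mice stand behind 4 columns per table, p-values may be too small for a statement about mice.

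A promoter can meet distant DNA when chromatin folds into loops, and contact frequency falls with distance along the chromosome. ESRRB belongs to the transcription factor network that holds mouse embryonic stem cells in the naive pluripotent state, together with NANOG, SOX2, KLF4, KLF2, TFCP2L1 and SALL4, whose promoters were captured beside it. Promoters of genes that respond to interferon gamma can carry a DNA element called the gamma-activated site, and the Stat3 and Ciita promoters were on the same panel.

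The bait spanned chr12:86419274-86422913 (GRCm38, the mm10 build of the deposited coordinates), a DpnII fragment of 3640 bp. It held the start sites of 3 of the 6 annotated Esrrb transcripts. Esrrb itself (ENSMUSG00000021255.17) lies at chr12:86361117-86521628 on the plus strand, 160512 bp long, so the gene body reached from 59.98 kb upstream to 100.5 kb downstream of the middle of the bait. The outer start site lay 59.98 kb upstream, and 2 further start sites lay 49.0 kb and 83.3 kb downstream.

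The RefSeq promoters of the gene (GRCm38.p6) are shown to set the captured internal promoter beside the outer one, each as the 250 bases before its start site on the plus strand, at chr12:86421394-86421643 and chr12:86360867-86361116. Capitals mark a match, on either strand, to the gamma-activated site TTCNNNGAA or to the estrogen-related receptor core AAGGTCA. The internal promoter had no such match in this window. In the outer promoter 1 gamma-activated site match starts at base 73, in 7.02% of 32805 RefSeq promoters of this length at least 1 occurs, and the receptor core occurs in 4.08%. The whole bait fragment, 3640 bp long, held 2 gamma-activated site matches and 0 receptor core matches. No rate was counted for fragments of that length, and the percentages above are for 250 bases.
Esrrb internal promoter: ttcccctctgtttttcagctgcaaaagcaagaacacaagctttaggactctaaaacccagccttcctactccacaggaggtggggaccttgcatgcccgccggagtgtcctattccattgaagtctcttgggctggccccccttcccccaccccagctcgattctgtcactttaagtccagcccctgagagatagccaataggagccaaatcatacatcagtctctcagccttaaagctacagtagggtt
Esrrb outer promoter: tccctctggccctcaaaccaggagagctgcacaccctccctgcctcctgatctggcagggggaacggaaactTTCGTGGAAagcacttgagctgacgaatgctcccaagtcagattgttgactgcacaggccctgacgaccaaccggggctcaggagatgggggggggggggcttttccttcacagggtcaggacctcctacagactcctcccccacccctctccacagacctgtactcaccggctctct

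The next sequences are the fragment with the most reads, the 4 fragments called as contacts in both tables, and the 2 fragments that hold a match to the consensus of CTCF, the factor found at many loop anchors. Each is printed on the plus strand of GRCm38 from its first base, for at most 300 bases, and capitals mark the DpnII site GATC at the start and matches to AAGGTCA, TTCNNNGAA or the CTCF consensus on either strand. The printed stretches are chr12:85919529-85919828, chr12:86070287-86070586, chr12:86128791-86129046, chr12:86402769-86403068, chr12:86431412-86431711, chr12:86616262-86616561 and chr12:86627999-86628298. No printed matches overlapped each other.
501.1 kb upstream, Ttll5 intron: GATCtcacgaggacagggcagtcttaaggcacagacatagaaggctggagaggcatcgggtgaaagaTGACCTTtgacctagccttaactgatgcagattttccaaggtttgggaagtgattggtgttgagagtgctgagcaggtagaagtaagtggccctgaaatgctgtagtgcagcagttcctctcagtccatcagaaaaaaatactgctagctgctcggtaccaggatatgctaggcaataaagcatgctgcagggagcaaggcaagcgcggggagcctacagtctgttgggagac
350.6 kb upstream, Tgfb3 intron: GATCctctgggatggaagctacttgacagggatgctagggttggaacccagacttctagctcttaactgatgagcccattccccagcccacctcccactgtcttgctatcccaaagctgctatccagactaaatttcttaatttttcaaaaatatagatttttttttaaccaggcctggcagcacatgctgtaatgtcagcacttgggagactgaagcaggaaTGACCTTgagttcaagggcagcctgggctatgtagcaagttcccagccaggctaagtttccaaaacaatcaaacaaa
292.2 kb upstream, Ift43 intron: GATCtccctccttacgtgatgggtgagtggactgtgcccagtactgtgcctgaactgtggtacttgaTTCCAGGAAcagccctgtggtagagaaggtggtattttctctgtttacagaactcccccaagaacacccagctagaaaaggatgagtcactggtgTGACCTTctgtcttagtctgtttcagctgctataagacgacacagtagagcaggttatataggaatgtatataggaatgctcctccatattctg
18.2 kb upstream, Esrrb intron: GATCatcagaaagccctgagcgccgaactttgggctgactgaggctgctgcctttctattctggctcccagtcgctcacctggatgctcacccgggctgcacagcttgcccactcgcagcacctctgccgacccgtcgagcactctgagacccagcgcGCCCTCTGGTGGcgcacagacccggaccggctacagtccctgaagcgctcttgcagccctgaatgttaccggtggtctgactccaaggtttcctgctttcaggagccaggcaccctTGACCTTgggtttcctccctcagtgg
10.9 kb downstream, Esrrb intron: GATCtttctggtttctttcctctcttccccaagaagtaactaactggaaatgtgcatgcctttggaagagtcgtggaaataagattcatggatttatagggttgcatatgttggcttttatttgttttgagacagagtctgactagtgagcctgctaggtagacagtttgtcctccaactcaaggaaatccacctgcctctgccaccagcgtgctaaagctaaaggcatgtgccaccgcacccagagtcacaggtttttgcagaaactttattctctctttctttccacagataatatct
195.5 kb downstream, outside genes: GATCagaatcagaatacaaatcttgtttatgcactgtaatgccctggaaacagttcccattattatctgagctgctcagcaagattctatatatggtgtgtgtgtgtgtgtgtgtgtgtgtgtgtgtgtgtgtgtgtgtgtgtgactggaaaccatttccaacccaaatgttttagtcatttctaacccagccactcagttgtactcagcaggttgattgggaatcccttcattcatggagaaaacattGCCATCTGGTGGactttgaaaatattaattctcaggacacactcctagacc
207.1 kb downstream, outside genes: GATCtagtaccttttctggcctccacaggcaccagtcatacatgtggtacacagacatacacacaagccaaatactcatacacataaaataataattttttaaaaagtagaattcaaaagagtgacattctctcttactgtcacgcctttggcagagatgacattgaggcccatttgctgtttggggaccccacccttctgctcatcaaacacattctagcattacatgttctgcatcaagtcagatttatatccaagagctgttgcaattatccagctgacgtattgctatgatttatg

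Over whole fragments, 19 of the 126 members (15.1%) held the receptor core, against 11.6% of the 3788 DpnII fragments of at least 101 bp in the same range. The gamma-activated site occurred in 12 members (9.52%) and in 13.4% of all fragments of the range. The CTCF consensus occurred in 2 members (1.59%) and in 0.449% of all fragments of the range, which is 17 fragments. These are descriptions of letters, and 2 members are too few to set apart. Members had a median length of 411.5 bp and a median GC content of 46.84%, against 375.5 bp and 46.78% for the other fragments of the range.

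Total reads per library were 23037, 30932, 24963 and 27085 in the IFNγ-named table and 34499, 37290, 29025 and 24549 in the control-named table. Of these, members took 842, 1153, 1059 and 911 reads in the IFNγ-named table, against 1324, 1699, 991 and 854 reads in the control-named table. Over all 8 libraries a member had a median of 51.5 reads, from 1 to 354. The nearest member, 10.2 kb upstream, had 1, 39, 1 and 1 reads in the IFNγ-named table and 1, 2, 1 and 1 in the control-named table, while the nearest pair left out by the lower limit, at 8.6 kb, had 2, 1, 1 and 3 reads and 4, 14, 4 and 2 reads. At the upper limit the farthest member, 957.8 kb upstream, had 31, 5, 5 and 5 reads in the IFNγ-named table and 3, 3, 4 and 2 reads in the control-named table, and the nearest pair beyond 1 Mb had 0, 9, 2 and 6 reads and 1, 2, 4 and 3 reads. Counting error is only part of the spread here: for fragment pairs the fitted coefficient of variation between libraries beyond it was 0.793. Reads carry no molecular identifiers in the files used, and the part of duplicate reads in this spread was not tested.

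One feature of the counts touches every result below. Of the 83 members with at least 40 reads, 82 had reads in all 8 libraries, yet in 31 of them a single library held over 50% of the reads. In 12 of the 83, at least 5 of the 8 libraries had exactly 1 read. Of the 1008 library counts of the members, 230 were exactly 1, 101 were 0, 71 were 2 and 62 were at least 30. Among pairs of this bait with other chromosomes, 2449 pairs were listed and 59 had at least 40 reads. Of those 59, 58 had reads in all 8 libraries, 25 had over 50% in a single library and 10 had exactly 1 read in at least 5 libraries. What gives a fragment its high count in 1 library was not tested. The highest library lay in the IFNγ-named table for 37 of the 83 members and in the control-named table for 46.

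**Figure D1:**
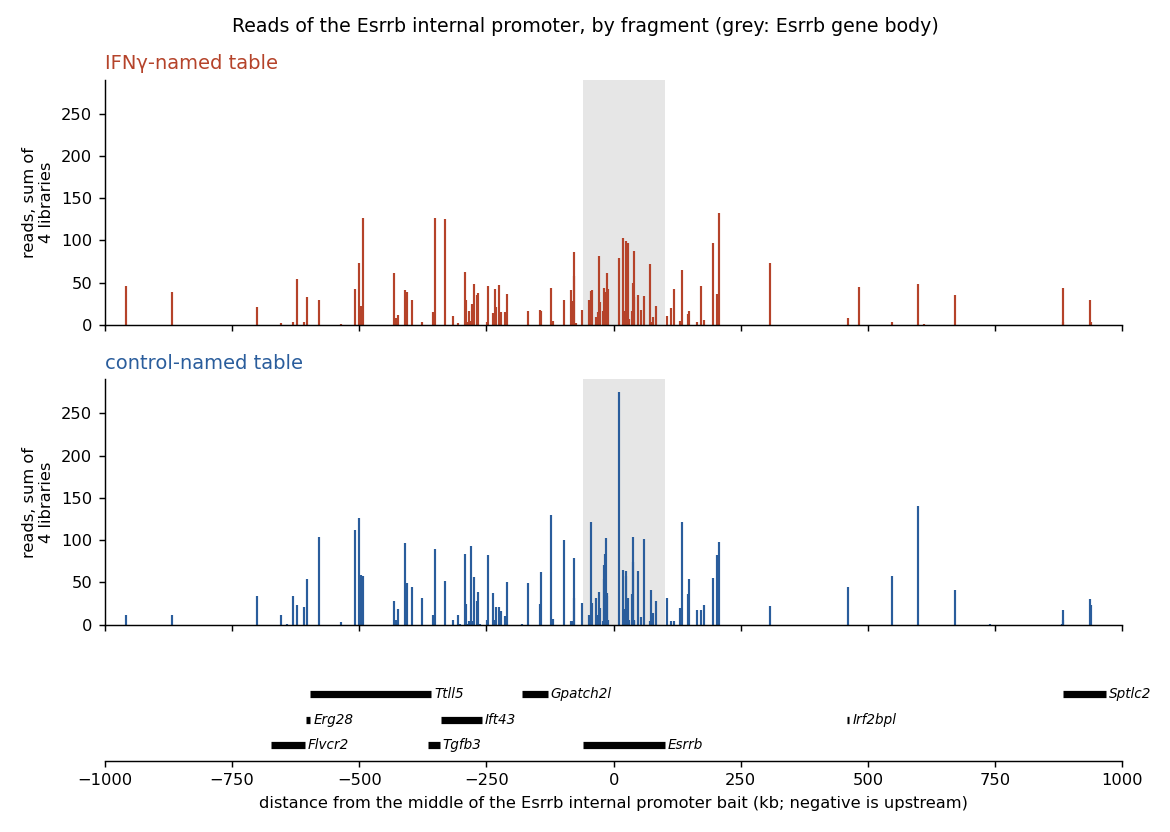
Reads of the Esrrb internal promoter per fragment, summed over 4 libraries, against distance from the middle of the bait in kb (negative is upstream), in the IFNγ-named table (top) and the control-named table (middle); grey marks the Esrrb gene body and black bars the protein-coding genes with at least 40 reads. The tallest line, 10.9 kb downstream, had 79 reads in the IFNγ-named table and 275 in the control-named table. Beyond the gene body, lines are dense at 200 to 400 kb upstream (27 members), thinner at 100 to 200 kb upstream (6 members) and sparse beyond 210 kb downstream.

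The internal promoter's reads at 10 kb to 1 Mb were spread over its own gene and a stretch of chromosome upstream of it. Of the 126 members, 78 lay upstream and 48 downstream of the bait, and 40 lay inside the Esrrb gene body (18 upstream and 22 downstream of the bait). Outside the gene body, 60 members were upstream and 26 downstream. By annotation, 5 overlapped an exon, 85 lay in an intron and 36 lay outside annotated genes. The 2 tables listed largely the same members: 120 were in the IFNγ-named table, 122 in the control-named table and 116 in both (92.06%), as were 55.31% of this bait's same-chromosome pairs at 1 Mb or more, 5.676% of its pairs with other chromosomes and 100% of its pairs under 10 kb. Of the same-range pairs of Klf4 and Lifr, 115 of 121 and 107 of 112 were in both tables.

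The share of all Esrrb bait reads that fell at 10 kb to 1 Mb was 31.7%, 34.6%, 29.1% and 24.6% in the IFNγ-named table. It was 29.2%, 30.4%, 29.4% and 30.3% in the control-named table. The control-named libraries lie within the range of the IFNγ-named ones, and the means were 30.0% ± 4.26 and 29.8% ± 0.643 (SD, n = 4 each). The difference of 0.15 percentage points gave p = 0.971 (exact two-sided permutation test; 4 against 4 libraries cannot go below 0.0286). Adjusted over the 3 shares tested, each p was 1.

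Inside the gene body lay 37.5%, 28.7%, 40.9% and 28.3% of the members' reads in the IFNγ-named table. In the control-named table the gene body took 30.8%, 43.5%, 34.0% and 27.4%. The tables overlap over nearly their whole range, with means of 33.9% ± 6.33 and 33.9% ± 6.92 (SD, n = 4 each) and a difference of -0.0682 percentage points (exact permutation p = 1). Upstream of the bait lay 55.9%, 67.2%, 52.7% and 59.7% of reads in the IFNγ-named table, against 52.9%, 67.0%, 59.5% and 54.9% in the control-named table. Means were 58.9% ± 6.25 and 58.6% ± 6.26 (SD, n = 4 each), and the difference was 0.314 percentage points (exact permutation p = 0.857). As counted, none of the 3 shares differed by more than the spread between libraries, and the sign of each turned under some of the alternatives. With each fragment's highest library count set to its second highest, the gene body share was 31.8% ± 2.32 in the IFNγ-named table and 34.9% ± 2.32 in the control-named table (SD, n = 4 each), a difference of -3.13 percentage points that exceeds the SD but did not pass (exact permutation p = 0.0571).

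**Figure D2:**
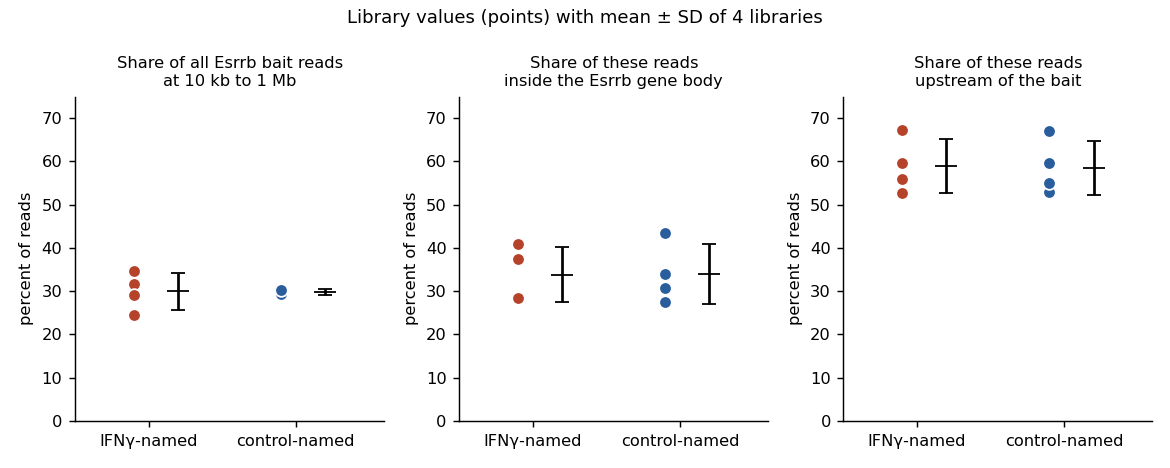
Library values (points) and mean ± SD of 4 libraries, in percent of reads, for the share of Esrrb bait reads at 10 kb to 1 Mb (left), the share of those reads inside the gene body (middle) and the share upstream of the bait (right), with the IFNγ-named table left of the control-named table in each panel. Means lie at 30.0% and 29.8%, 33.9% and 33.9%, and 58.9% and 58.6%.

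Within the gene, reads were densest nearest the bait. At 10 to 20 kb downstream, 3 members took 556 reads, or 19.9 reads per DpnII fragment of at least 101 bp in that step, and at 20 to 60 kb downstream 15 members took 1103 reads, or 12.4 per fragment. From 60 to 100 kb downstream, still inside the gene, 4 members took 195 reads, or 2.27 per fragment. Upstream, 9 members at 10 to 20 kb took 677 reads (24.2 per fragment) and 9 members at 20 to 60 kb took 525 reads (7.72 per fragment).

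The most-read member, chr12:86431412-86432602 in an Esrrb intron 10.9 kb downstream of the bait, had 17, 14, 23 and 25 reads in the IFNγ-named table. In the control-named table it had 92, 87, 20 and 76 reads. Its level was 5.92 ± 1.16 reads per 1000 Esrrb bait reads in the IFNγ-named table and 17.2 ± 8.85 in the control-named table (SD, n = 4 each), and the third control-named library, at 20 reads, lies among the IFNγ-named ones. The log2 ratio was -1.65 (SE 0.601), and edgeR (quasi-likelihood test) gave p = 0.0194 before and 0.284 after Benjamini-Hochberg adjustment over 3673 pairs, so it did not pass. It was high in 3 libraries of 1 table.

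Next in the gene was chr12:86438805-86438960, an intronic fragment 17.8 kb downstream, with 55, 11, 17 and 20 reads in the IFNγ-named table and 22, 20, 13 and 10 in the control-named table. Only the first IFNγ-named library stood above the rest. At 24.6 kb downstream, chr12:86445579-86445860 had 8, 68, 7 and 16 reads in the IFNγ-named table and 23, 21, 10 and 9 in the control-named table, again with 1 library above the others. The most even member was chr12:86402769-86403077, the intronic fragment 18.2 kb upstream of the bait that holds a CTCF consensus match, with 7, 9, 14 and 14 reads in the IFNγ-named table and 15, 14, 14 and 11 in the control-named table. Its highest library held 15.31% of its reads, the lowest such share among the 83 members with at least 40 reads, where the median was 45.99% and the highest 100%; it was singled out after its values were seen.

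The internal promoter's reads near the gene's other start sites were counted next. Within 5 kb of the outer start site, 59.98 kb upstream, 1 of 15 DpnII fragments was listed, with 7, 3, 3 and 5 reads in the IFNγ-named table and 10, 8, 4 and 4 in the control-named table. Around the start site 49.0 kb downstream, 2 of 22 fragments were listed, with 7, 12, 21 and 13 reads and 15, 37, 12 and 8 reads. Around the one 83.3 kb downstream, 1 of 19 was listed, with 5, 3, 2 and 13 reads and 9, 9, 4 and 6 reads. In each case the 2 tables overlapped. These windows had 2.93, 5.68 and 2.68 reads per DpnII fragment, against 7.72 in the whole step from 20 to 60 kb upstream, 12.4 in that from 20 to 60 kb downstream and 2.27 in that from 60 to 100 kb downstream, each with too few listed fragments to set it apart from its step.

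The gene body was also set against DNA at the same distances on the other side. From 59.98 to 100.5 kb, the downstream side lies inside Esrrb and the upstream side outside it. Inside the gene, 11, 8, 71 and 18 reads fell there in the IFNγ-named table and 14, 51, 9 and 13 in the control-named table, over 86 DpnII fragments of which 4 were listed. The mirrored upstream band had 63, 96, 62 and 41 reads in the IFNγ-named table and 78, 115, 28 and 23 in the control-named table, over 80 DpnII fragments of which 7 were listed. Reads per DpnII fragment were lower inside the gene in 7 of 8 libraries, by a mean log2 ratio of -1.755 ± 1.18 (SD, n = 8; exact two-sided sign-flip test, p = 0.0156). The third IFNγ-named library was the exception, at 0.09, and 66 of its 71 reads came from 1 fragment 72.2 kb downstream. The band holds few members, and the test says nothing of the gene body nearer to the bait. Inside the gene was always downstream here and outside it always upstream, so gene and side were not tested apart. The 8 libraries read the same listed fragments, so the p shows only that the difference recurred between them.

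Upstream of the gene and beyond 100 kb, members were densest at 200 to 400 kb. At 200 to 400 kb upstream 27 members took 1645 reads, 4.80 per DpnII fragment, which was more than the 1.90 per fragment at 100 to 200 kb upstream (6 members, 373 reads). At 400 to 600 kb upstream 11 members took 1115 reads (3.20 per fragment), and at 600 to 1000 kb 9 members took 404 reads (0.513 per fragment). Downstream, the step from 100 to 200 kb had 11 members and 709 reads (3.51 per fragment). From 200 to 400 kb downstream there were 3 members with 444 reads (1.18 per fragment), from 400 to 600 kb 4 members with 347 reads (0.916 per fragment), and from 600 to 1000 kb 8 members with 234 reads (0.301 per fragment).

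At 100 kb to 1 Mb, almost wholly outside the gene, the upstream side had more reads than the downstream side in 8 of 8 libraries. The log2 ratio of upstream to downstream reads was 1.18, 1.21, 0.59 and 1.00 in the IFNγ-named table and 0.17, 2.22, 1.39 and 0.70 in the control-named table. Its mean over the 8 libraries was 1.06 ± 0.615 (SD; exact two-sided sign-flip test, p = 0.0078, the smallest that 8 libraries allow). This comparison was chosen after the positions of the members were seen. All 8 libraries read the same list of 126 members, of which 105 had reads in every library. The p therefore shows only that the difference recurred between libraries at 1 locus. Counting fragments with reads in place of reads gave a mean log2 ratio of 1.098 ± 0.0578, so the difference lay in how many fragments were listed on each side. Other baits were one-sided too: over the other 13 baits the mean log2 ratio of the lower-coordinate to the higher-coordinate side ran from -2.14 (Klf4) to 1.35 (Ciita_2).

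Upstream of Esrrb, Ttll5 and Ift43 held the most reads. Within 1 Mb of the bait the annotation (GENCODE vM21) holds 55 other genes, of which 16 had a listed fragment within the gene or 1 kb of it and 13 had at least 40 reads. Of the 26 protein-coding neighbours 10 had a listed fragment, 6 of 9 upstream and 4 of 17 downstream. The protein-coding neighbours without one include Fos, Jdp2 and Batf, genes of AP-1 family transcription factors, at 945.5, 801.6 and 723.2 kb upstream, and Vash1 and Angel1 at 264.3 and 292.4 kb downstream.

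Ttll5, which encodes a tubulin polyglutamylase and lies with its middle 477.8 kb upstream, had 13 members and 1224 reads. It took 11.6%, 13.96%, 9.44% and 14.3% of the members' reads in the IFNγ-named table, against 11.7%, 11.9%, 18.9% and 22.4% in the control-named table. The first 2 control-named libraries lie among the IFNγ-named ones. Means were 12.3% ± 2.25 and 16.2% ± 5.29 (SD, n = 4 each), with exact permutation p = 0.257 and 0.669 after adjustment over the 13 genes.

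Ift43, a subunit of the intraflagellar transport machinery that builds cilia, lies 298.6 kb upstream and had 14 members and 804 reads. Its share was 6.18%, 12.8%, 9.54% and 10.98% in the IFNγ-named table and 6.95%, 9.54%, 9.59% and 6.32% in the control-named table. The tables overlapped, at means of 9.88% ± 2.82 and 8.10% ± 1.71 (SD, n = 4 each; exact permutation p = 0.371, adjusted 0.669).

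Tgfb3, the gene of the secreted ligand transforming growth factor beta 3, lies 353.2 kb upstream and had 2 members with 243 reads. It took 8.43%, 1.47%, 2.36% and 3.07% of reads in the IFNγ-named table and 3.02%, 1.88%, 1.72% and 1.52% in the control-named table. The first IFNγ-named library stood above all others, and the means were 3.84% ± 3.13 and 2.04% ± 0.673 (SD, n = 4 each; exact permutation p = 0.314, adjusted 0.669). The transcript Gm37804 lies within 1 kb of 1 of these 2 fragments and shares its 216 reads, so it is not a separate value.

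Gpatch2l, 154.3 kb upstream, had 186 reads on 3 members, or 1.28% ± 0.278 of reads in the IFNγ-named table and 2.86% ± 1.90 in the control-named table (SD, n = 4 each; exact permutation p = 0.200, adjusted 0.669), the lowest p of the 13. The other neighbours with at least 40 reads took 0.537% to 3.30% in the IFNγ-named table on average, except Irf2bpl at 0.212%, against 0.686% to 2.85% in the control-named table. They were Flvcr2, a membrane transporter gene (154 reads), Erg28, named for a sterol synthesis gene of yeast (87 reads), the non-coding Gm805 (278 reads) and 4732487G21Rik (186 reads), the downstream Irf2bpl, a regulator gene related to an IRF2-binding protein (53 reads), Sptlc2, a subunit of serine palmitoyltransferase, the first enzyme of sphingolipid synthesis (155 reads), and the overlapping small RNA genes n-R5s64 and Gm47285, which share 1 fragment (55 reads). Over the 13 genes 0 passed after adjustment and 0 had an unadjusted p under 0.05, by exact permutation tests whose lowest possible p of 0.0286 exceeds what a single gene would need to pass. For all 13 the libraries of the 2 tables overlapped. Without the third control-named library those of Gpatch2l did not, at means of 1.28% and 3.47% in the IFNγ-named and control-named tables (exact permutation p = 0.0286, adjusted 0.371).

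**Figure D3:**
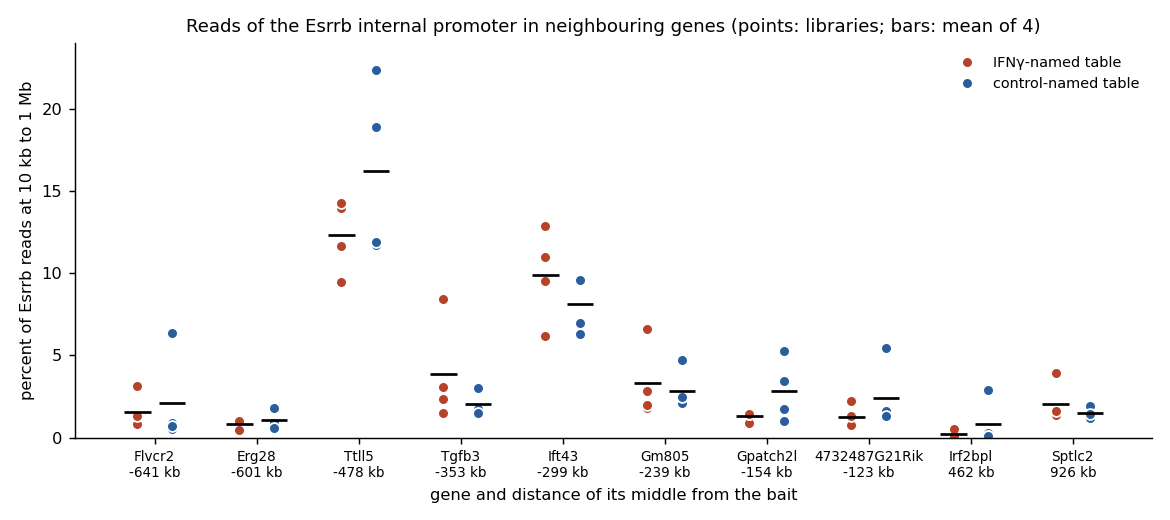
Share of the members' reads, in percent, that fell in each of 10 neighbouring genes with at least 40 reads, ordered along the chromosome; points are libraries and bars means of 4, with the IFNγ-named table left of the control-named table. Ttll5 (means 12.3% and 16.2%) and Ift43 (9.88% and 8.10%) hold the largest shares, and the points of the 2 tables overlap for every gene.

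Of the members upstream in these genes, 1 touches a start site of Ttll5 and overlaps its exon: chr12:85911370-85913238, 508.8 kb upstream, had 9, 8, 10 and 16 reads in the IFNγ-named table and 19, 18, 8 and 67 in the control-named table. A second Ttll5 start site was within 1 kb of the fragment 497.2 kb upstream, with 4, 3, 6 and 9 reads and 11, 37, 6 and 5 reads. An Ift43 start site was within 1 kb of the fragment 279.7 kb upstream, where the second control-named library had 89 of all 98 reads and the 4 IFNγ-named libraries had 2, 1, 1 and 1. The fragment 460.8 kb downstream that overlaps the Irf2bpl exon had 1, 1, 1 and 5 reads in the IFNγ-named table and 38, 5, 1 and 1 in the control-named table. In the first of these the 3 lower control-named libraries lie near the IFNγ-named ones, and in the last a single library holds most reads.

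The deposited score, which the authors' contact caller gives each pair from its pooled reads against the background expected at that distance, called 9 of 120 listed members (7.5%) in the IFNγ-named table and 14 of 122 (11.48%) in the control-named table at a score of 5 or more. Over the members and all other baits in the same distance range the shares called were 10.4% in the IFNγ-named table and 11.8% in the control-named table, so the share for Esrrb was near the background. A score rises with pooled reads, so 1 high library can make a call: 6 of the 19 members called in either table had over 50% of their reads in 1 library. All 19 lay outside the gene body, 97.8 to 622.1 kb away, 13 upstream and 6 downstream. Of the 25 members up to 100 kb upstream 18 lay in the gene body, as did the 22 members up to 100 kb downstream. Gene body and nearness to the bait were thus not tested apart in these calls.

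Called in both tables were 4 members, 3 upstream and 1 downstream, a number that was not set against the other baits. The intronic Ttll5 fragment chr12:85919529-85920489 (501.1 kb upstream) had 13, 15, 18 and 27 reads in the IFNγ-named table and 23, 22, 15 and 66 in the control-named table. In Tgfb3, chr12:86070287-86070653 (350.6 kb upstream) had 68, 14, 22 and 22 reads against 35, 29, 14 and 12. In Ift43, chr12:86128791-86129046 (292.2 kb upstream) had 11, 34, 7 and 11 reads against 12, 15, 47 and 9. Of the 4 printed sequences, the 3 upstream each hold 1 receptor core match and the downstream one holds none, and the Ift43 fragment also holds a gamma-activated site match. Among fragments of the range with at least 300 bases, 6.89% hold the receptor core in the first 300. Among the members of that length the share was 8.43% (7 of 83). The Ift43 fragment is shorter than 300 bases and so lies outside both sets. These 4 fragments are too few to set apart from those shares, and no enrichment was tested. Downstream and outside genes, chr12:86627999-86628350 (207.1 kb) had 10, 92, 14 and 16 reads in the IFNγ-named table and 17, 11, 10 and 60 in the control-named table. In all 4 the tables overlap, and their log2 ratios were -0.77 (SE 0.633), 0.77 (SE 0.681), -0.35 (SE 0.717) and 0.36 (SE 0.887), with adjusted p of 0.416, 0.450, 0.751 and 0.791 in edgeR's test.

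Across single fragments the 2 tables were not distinguished. Of the 126 members 112 had at least 10 reads and were tested, and 0 passed an adjusted p of 0.05 in edgeR's quasi-likelihood test, against 0% of all 3673 pairs tested. At an unadjusted p under 0.05 there were 23 members (20.5%), 13 higher and 10 lower in the IFNγ-named table, against 16.6% of all pairs (608). This split was 16 higher of 24 without TMM factors and 16 of 22 scaled to the Esrrb bait's own reads. DESeq2 likewise called 0 members, with 10 of the 112 at an unadjusted p under 0.05, against 274 of all 3673 pairs. It gave no adjusted p for 359 of the 3673 pairs, and these count here as not called. The members' median log2 ratio was -0.20 and that of all pairs was -0.09. In 3 of the 112 members (2.68%) the reads per library total of the 2 tables did not overlap, against 2.21% of all pairs, which is near the background.

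The members with the smallest unadjusted p were mostly single high libraries. At 72.2 kb downstream in Esrrb, chr12:86493131-86493524 had 1, 3, 66 and 2 reads in the IFNγ-named table and 1, 1, 1 and 1 in the control-named table, with a log2 ratio of 4.11 (SE 1.34; adjusted p = 0.284 in edgeR's test). At 41.0 kb downstream, chr12:86461906-86462267 had 84, 1, 1 and 1 reads against 2, 1, 1 and 1, and at 38.6 kb downstream chr12:86459594-86459834 had 1, 1, 2 and 1 reads against 1, 71, 1 and 1. These Esrrb introns thus carry high counts in different libraries of both tables. Of the 10 members with the smallest p, 8 had at least 84.44% of their reads in 1 library. The exceptions were the fragment 10.9 kb downstream described above and the farthest member, 957.8 kb upstream, whose 4 IFNγ-named libraries (31, 5, 5 and 5 reads) all lie above the control-named ones (3, 3, 4 and 2 reads), with a log2 ratio of 2.16 (SE 0.849; adjusted p = 0.284 in edgeR's test).

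**Figure D4:**
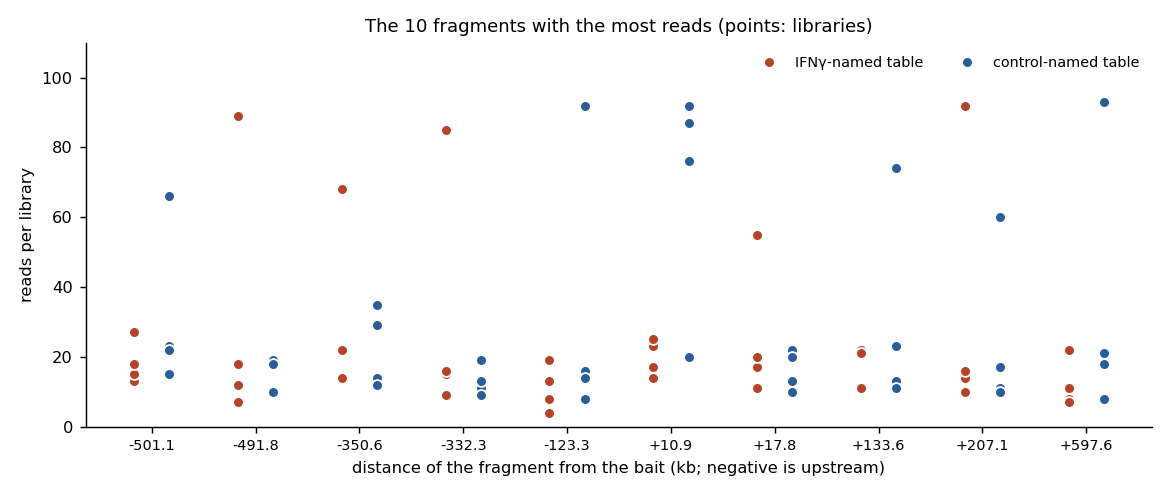
Reads per library for the 10 members with the most reads, ordered by distance from the bait in kb (negative is upstream), with the IFNγ-named table left of the control-named table at each fragment; each point is a library. In 8 of the 10 a single library stands above the other 7, at 207.1 kb downstream 1 library of each table does (92 and 60 reads), and the fragment 10.9 kb downstream has 3 high libraries in the control-named table (92, 87 and 76 reads).

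Summing fragments into 10 kb windows did not separate the tables. Of 63 Esrrb windows tested 0 passed edgeR's adjusted p of 0.05, against 0% of 636 windows of all baits. At an unadjusted p under 0.05 there were 7 (11.1%), 4 higher and 3 lower in the IFNγ-named table, against 16.4% of all windows. DESeq2 called 0 Esrrb windows, with 7 of the 63 at an unadjusted p under 0.05, against 60 of all 636 windows. It gave no adjusted p for 54 of the 636 windows, and these count as not called. The window from 20 to 10 kb upstream had 35, 77, 82 and 56 reads in the IFNγ-named table and 128, 199, 61 and 39 in the control-named table. Its counterpart from 10 to 20 kb downstream had 78, 29, 44 and 47 reads against 116, 116, 35 and 91. In both windows the tables overlapped, with log2 ratios of -0.48 (SE 0.488) and -0.53 (SE 0.538) and adjusted p of 0.522 and 0.518 in edgeR's test.

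Some members were even across all libraries. Of the 83 with at least 40 reads, 11 had no library above 25% of their reads, 8 of them upstream and 2 inside the gene body. Beside the fragment 18.2 kb upstream these include an Ift43 intron fragment 273.7 kb upstream, with 9, 9, 12 and 18 reads in the IFNγ-named table and 15, 16, 15 and 10 in the control-named table. At 670.7 kb downstream, a fragment outside genes had 10, 7, 13 and 5 reads against 11, 9, 10 and 11. In Sptlc2, 937.3 kb downstream, a fragment had 3, 9, 10 and 7 reads against 10, 9, 6 and 5. These even members lie from 18.2 to 937.3 kb away, and in each of the 4 named the tables overlapped.

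Against the other captured promoters, the Esrrb internal promoter had a larger share of its reads at 10 kb to 1 Mb than 5 of 13. Over the 8 libraries this share averaged 29.9% ± 2.82 (SD), against 16.8% ± 3.18 for Tfcp2l1, 16.5% ± 3.83 for Phc1, 22.5% ± 3.47 for Klf2, 21.3% ± 3.65 for Dppa5a and 23.8% ± 4.78 for Sall4. It was higher for Esrrb in 8 of 8 libraries than for the first 3 of these and in 7 of 8 than for Dppa5a and Sall4, and these 5 of 13 differences passed (exact sign-flip tests over n = 8 libraries, adjusted p = 0.0339 for Tfcp2l1, Phc1 and Klf2 and 0.0406 for Dppa5a and Sall4). Stat3, at 34.3% ± 4.08, and Klf4, at 33.0% ± 5.61, were higher than Esrrb in 7 of 8 libraries each, with adjusted p of 0.0508 and 0.0846 (exact sign-flip tests, n = 8), and did not pass. As a share of same-chromosome reads Esrrb (43.9% ± 4.62) was below Stat3 (60.9% ± 8.68) and Klf4 (48.2% ± 4.91), with adjusted p of 0.0339 and 0.0203 (exact sign-flip tests, n = 8), and above 4 baits, Phc1, Tfcp2l1, Sall4 and Sox2. Counted from 20 kb it was below Klf4, at 25.9% ± 2.83 against 30.2% ± 5.08 (adjusted p = 0.0339, exact sign-flip test, n = 8), and above 7 baits, the 5 named and Ciita_1 and Ciita_3. Lifr had nearly the same mean, 30.1% ± 3.84, and Esrrb minus Lifr was -0.157 ± 2.68 percentage points (SD, n = 8). The remaining 5, Nanog, Sox2 and the 3 Ciita baits, averaged 23.9% to 27.5% and did not pass. Leaving out a library raises the smallest p that the test allows to 0.0156, and with 1 library left out at a time 0 of the 13 differences passed in 7 of 8 cases, and 6 passed without the fourth IFNγ-named library. All 8 libraries read the same listed fragments of each bait, so each p shows only that a difference between single loci recurred between libraries. Differences in capture, fragment length and local DpnII density between baits were not tested.

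**Figure D5:**
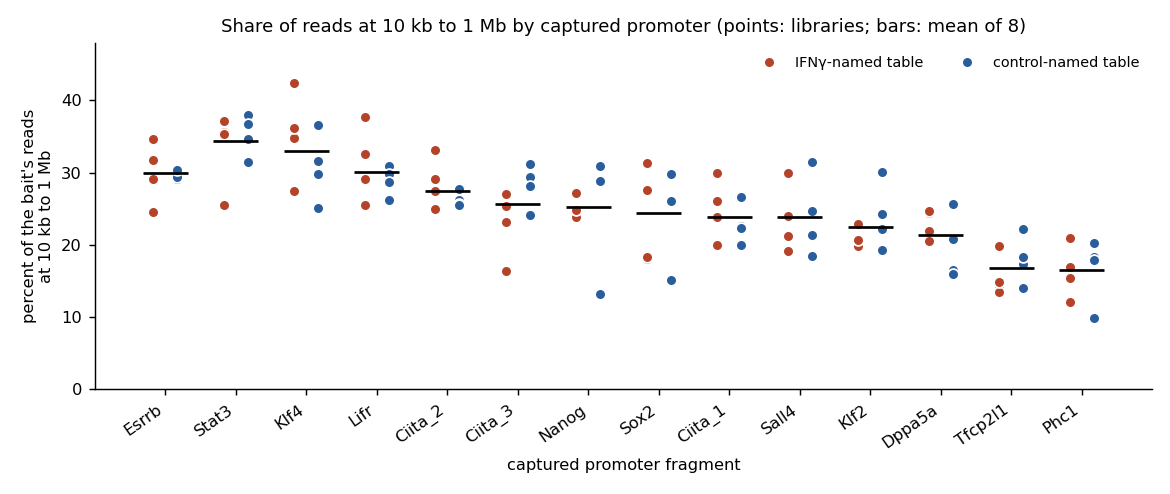
Percent of each bait's reads that fell at 10 kb to 1 Mb, with Esrrb at the left and the other 13 captured promoters in falling order of their mean; points are libraries, with the IFNγ-named table left of the control-named table at each bait, and bars are means of 8. Esrrb averages 29.9%, below Stat3 at 34.3% and well above Phc1 at 16.5%.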

How the data were processed

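The authors deposited 2 contact tables with 1 row per pair of bait and DpnII fragment, in the column layout of the CHiCAGO caller, per the file headers. Each row gives whole-number read counts for 4 libraries, and the deposited file also gives a pooled score and an expected background signal. Reads were aligned with Bowtie2 to mm10, per the submitters' processing notes; tool versions and duplicate removal were not given in the sources used here. Their deposited signal column and the merged read score, which the authors' tables derive from the 4 counts, were not tested. All deposited count columns were used.

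The tables were joined by bait and fragment, and a pair absent from 1 table was set to 0 reads. The members and lists were chosen with earlier results of these data known. Distances run between the middles of bait and fragment. Counts of pairs with at least 10 reads, and of 10 kb windows, were tested in edgeR 4.0.16 (TMM, quasi-likelihood, Benjamini-Hochberg over all baits), with DESeq2 1.42.0 as an alternative, both under R 4.3.3 and tested on simulated data. Shares were compared by exact permutation of 4 against 4 libraries, and values of 8 libraries against 0 by exact sign flips. Reads per fragment, not per length, were compared between regions. Named were genes with at least 40 reads and the fragments with the most reads, the smallest p or a score of 5 or more in both tables; a fragment named for another reason is marked or was chosen after its values were seen (its exon, start site, evenness or CTCF match). Annotation was GENCODE vM21 and RefSeq on GRCm38. The alternatives were other distance limits, fragments, windows, filters, scalings and score limits, and leaving out each library.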

Additional observations from a re-analysis of the deposited data

Results flagged for a closer look

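In 32 of 72 groups of 4 libraries, over the 3 shares, the 13 neighbouring genes and the 20 named fragments, 1 library lay apart from the other 3 (Dixon's criterion). Chance flags about 1 in 20 groups, but 23 of the 32 come from the named fragments, which were chosen for many reads, a small p or a high score and so tend to have a high library, and n-R5s64 and Gm47285 count 1 fragment as 2 genes; the number is therefore not set against chance. In 31 of the 32 the library that stood apart was the highest, and no cause was tested.

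Among gene shares, Flvcr2 reached 6.36% of the Esrrb members' reads in 1 control-named library, against at most 0.906% in the other 3, and 4732487G21Rik reached 5.47% against at most 1.61%. Gm805 reached 4.71% in 1 control-named library, the next being 2.46%. Irf2bpl stood apart in both tables, at 0.549% in the IFNγ-named table and 2.87% in the control-named table. Sptlc2 reached 3.95% in 1 IFNγ-named library, where the next was 1.61%, and n-R5s64 and Gm47285, on 1 shared fragment, reached 0.768%. Gpatch2l was the only low one, at 0.867% in 1 IFNγ-named library.

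Among fragments upstream, the highest IFNγ-named library had 31 reads at 957.8 kb, 89 at 491.8 kb, 68 at 350.6 kb, 85 at 332.3 kb, 34 at 292.2 kb and 38 at 83.9 kb. The highest control-named library had 66 reads at 501.1 kb, 47 at 292.2 kb, 89 at 279.7 kb, 92 at 123.3 kb and 66 at 18.6 kb. Downstream, it was 84 reads at 41.0 kb, 66 at 72.2 kb, 40 at 118.1 kb and 92 at 207.1 kb in the IFNγ-named table, and 71 at 38.6 kb, 60 at 207.1 kb, 54 at 547.0 kb and 93 at 597.6 kb in the control-named table. In 4 further groups the highest count was 2 reads and the others lower (279.7 kb and 18.6 kb upstream and 38.6 kb downstream in the IFNγ-named table, 41.0 kb downstream in the control-named table).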

How the results depend on the processing

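The fitted counts of called members stayed at 0 under every alternative run, except that with no filter on low counts edgeR called 5 of 126 members (3 higher in the IFNγ-named table), among 168 of 30435 pairs; each of the 5 had at least 86.84% of its reads in 1 library. The difference in the share at 10 kb to 1 Mb became -1.02 percentage points with each fragment's highest library count set to the second highest, which also moved the gene body share to -3.13 (exact permutation p = 0.0571) and the upstream share to 3.25. The gene body share became 3.58 from 20 kb and 0.472 when counted from the internal start site, and the upstream share became -0.355 from 20 kb and -0.14 when fragments were counted; in each the exact p stayed above 0.05. Leaving out each library gave ranges of -1.39 to 1.96, -2.41 to 3.12 and -2.46 to 3.12 points for the 3 shares, -2.02 to -1.48 for the gene body against its mirror, 0.891 to 1.19 for upstream over downstream (alternatives added after the data were seen) and 0 to 6 baits below Esrrb; without the third control-named library 1 neighbouring gene, Gpatch2l, had an unadjusted p under 0.05, and 0 passed after adjustment. At a score of 3 or more the calls were 95 of 120 listed members (79.17%) in the IFNγ-named table, against 72.17% over all baits. In the control-named table they were 93 of 122 (76.23%), against 76.78% over all baits. At 7 or more they were 0 and 0, against 0.8562% and 0.8475% over all baits. The median log2 ratio of all pairs was -0.09, 0.03 without TMM factors and from -0.21 to 0.11 with 1 library left out. Of members at an unadjusted p under 0.05, the higher ones were 15 of 16, 13 of 13, 10 of 10 and 15 of 16 without IFNγ-named library 1, 2, 3 or 4. They were 1 of 9, 1 of 10, 2 of 14 and 1 of 12 without control-named library 1, 2, 3 or 4. The direction thus went with the table that had lost a library, whichever library it was. No such split was counted for all pairs. No paired analysis was possible because the count columns name no mouse or passage. The restriction to distances from 20 kb could not change the mirrored bands, which start at 59.98 kb.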
